A study of Mus musculus with 16 samples.

Results

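The 10 genes described here encode the core of the inflammasome and of pyroptosis, namely Nlrp3, Aim2, Nlrp1b, Nek7, Pycard, Casp1, Casp4, Casp8, Gsdmd and Il18. They were chosen by gene symbol and by no rule on a measured value, though with earlier results of these data known. All 10 were found among the 21878 mRNAs of the series. RNA-seq was performed on microglia sorted as CD11b+/CD45int cells from the brains of 8 mice with experimental autoimmune encephalomyelitis (EAE) and 8 PBS-treated mice, each mouse giving 1 library. All mice were female wild-type C57BL/6 animals aged 8 weeks. EAE mice received MOG35-55 peptide in complete Freund's adjuvant and 200 ng of pertussis toxin on days 0, 2 and 7, controls received PBS, and brains were taken on day 14, at the peak of disease. The groups therefore differ in peptide, adjuvant and toxin together, and the effects of these cannot be told apart. In the treatment field of the labels the last MOG residue runs from 55 in EAE 1 to 62 in EAE 8, whereas the protocol gives 55 throughout.

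An inflammasome is a protein complex in which a sensor such as NLRP3, AIM2 or NLRP1 recruits the adaptor ASC, the product of Pycard, and through it the protease caspase-1. Active caspase-1 cleaves interleukin-1β and interleukin-18 into their secreted forms and cuts gasdermin D, whose fragment forms pores in the plasma membrane and causes pyroptosis, a lytic cell death. Caspase-11, the product of mouse Casp4, cuts gasdermin D after binding intracellular lipopolysaccharide, and caspase-8 joins this machinery to apoptosis. Microglia express several of these components, and inflammasome activity is widely studied in EAE. Activation occurs mainly through protein assembly and cleavage, which mRNA levels do not measure.

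Total counts per library were 24587443 to 30244215 for EAE and 26031889 to 34184576 for PBS. All 17 genes of a microglia marker list were detected, and their mean level was 14.1 to 22.8 FPKM (fragments scaled to transcript length and to library depth) in EAE and 13.05 to 21.3 FPKM in PBS libraries. The mean level of 10 neuron markers was higher, at 110 to 130 FPKM in EAE and 125 to 139 FPKM in PBS libraries, and 8 astrocyte markers had means of 145 to 219 FPKM and 168 to 199 FPKM. The mean of 8 oligodendrocyte markers was 114 to 160 FPKM in EAE and 125 to 154 FPKM in PBS libraries. The libraries thus held much RNA of other brain cells beside that of microglia, although the study reports high purity when sorted cells were re-gated. Levels of the 10 genes given below therefore cannot be assigned to microglia alone. Of the neuron markers, Syt1 (log2FC −0.28) and Gad1 (log2FC −0.53) fell in EAE mice in edgeR's test, and 9 of the 10 had a log2FC below 0. Of the astrocyte markers, Gfap rose (log2FC 0.50) and Slc4a4 fell (log2FC −0.25). Neutrophil markers also moved with the groups, as the mean of 12 such genes was 4.18 to 8.40 FPKM in EAE and 1.62 to 4.80 FPKM in PBS libraries, and 5 of the 12 passed edgeR's test as higher, among them genes that the study picked from these libraries. The mean of 6 T cell markers was 0.165 to 0.299 FPKM and 0.127 to 0.241 FPKM, with 0 of the 6 past the test. No gene of these lists was at 0 in all libraries, and the part of other cells in the results below was not tested. In such bulk samples, fewer cells of a type and less RNA per cell cannot be told apart.

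None of the 10 genes passed the test between EAE and PBS-treated mice. At a Benjamini-Hochberg adjusted p under 0.05 in edgeR's quasi-likelihood test, 0 of 10 were called, against 2.42% of all 17885 mRNAs tested (0.66% higher and 1.76% lower in EAE mice). With a |log2FC| over 1 as a further condition, 0.117% of all mRNAs were called. Without adjustment, 4 of 10 had a p under 0.05, against 17.4% of all mRNAs. Of these 4, Casp8 and Pycard had higher values in EAE mice (7.92% of all mRNAs) and Casp1 and Nek7 lower values (9.52%). DESeq2 called 1 of the 10, Casp8 (adjusted p = 0.0430), against 5.03% of all mRNAs. The log2 fold change (log2FC) was above 0 for 7 genes and below 0 for 3, with a median of 0.15, while the median over all mRNAs was 0.0092. In edgeR's fit over all 16 libraries, the data nevertheless limit the size of any change in the RNA of these mixed libraries. They do not limit a change within microglia alone. The 95% interval of the log2FC, taken gene by gene, lay between −1 and 1 for all 10 genes, as it did for 83.9% of all mRNAs. It came close to these limits for Casp8 (upper end 0.99) and Casp1 (lower end −0.97). These limits are those of this fit only. On leaving out 1 library, the log2FC reached 0.73 for Casp8 and −0.63 for Casp1. The FPKM values of EAE and PBS libraries overlapped for each of the 10 genes.

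**Figure D1:**
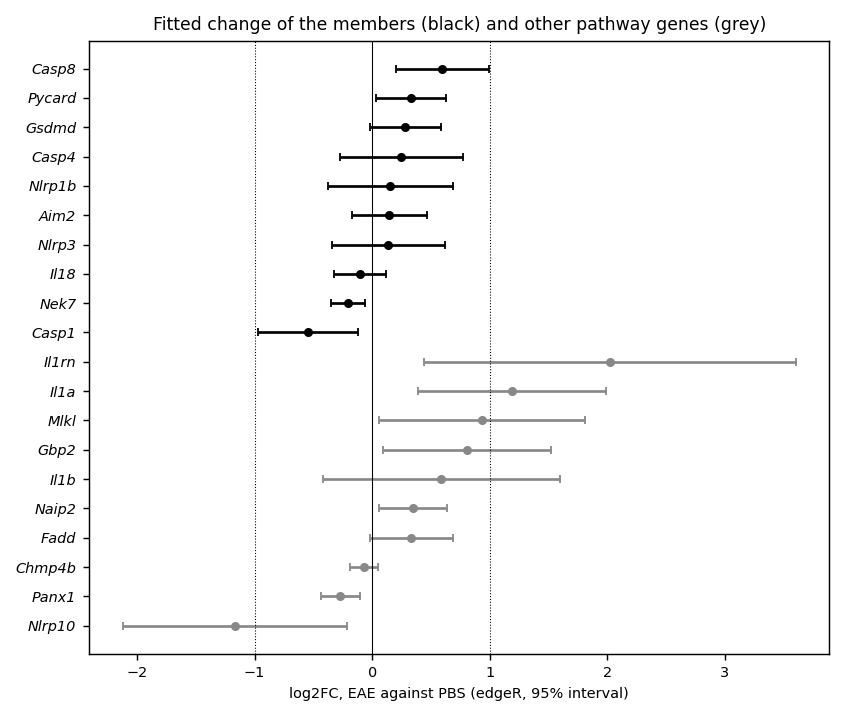
Fitted log2FC of EAE against PBS (x axis) with its 95% interval from edgeR, for the 10 inflammasome and pyroptosis genes in black and 10 other pathway genes in grey (8 libraries per group). Every black interval lies between the dotted lines at −1 and 1, and the widest grey interval is that of Il1rn, which had 0 to 2 counts in 5 PBS libraries.

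In PBS-treated mice, the 10 genes covered a wide range of expression per transcript length. Nek7, a kinase that binds NLRP3 and is needed for its assembly, was highest at 15.03 ± 1.084 FPKM (SD, n = 8). Il18 followed at 7.94 ± 1.05 FPKM and Pycard at 5.90 ± 1.20 FPKM. A middle group held Nlrp3 at 1.39, Gsdmd at 1.19, Aim2 at 1.11, Casp1 at 0.934 and Casp8 at 0.846 FPKM. Within it no neighbouring pair differed beyond the spread between libraries (Benjamini-Hochberg adjusted p = 0.246 to 0.500 in exact paired permutation tests, two-sided, n = 8). Casp4 was lower, at 0.584 ± 0.176 FPKM, and Nlrp1b was lowest, at 0.170 ± 0.092 FPKM. The order of the genes was taken from the means of these same libraries, so the tests of neighbouring pairs are no independent support for it. Of the 9 neighbouring pairs tested, Nek7 and Il18, Il18 and Pycard, Pycard and Nlrp3, and Casp4 and Nlrp1b kept their order in 8 of 8 libraries (adjusted p = 0.0176, from the smallest p that 8 libraries allow, 0.00781, exact permutation). Casp8 exceeded Casp4 in 7 of 8 libraries (adjusted p = 0.0422, exact permutation). The adaptor and the cytokine precursor were thus present at several times the FPKM of the sensors and of the caspase that links them. FPKM depends on the gene length used, and the lengths implied by the files ranged from 1467 bases for Casp4 to 10785 bases for Nlrp1b.

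**Figure D2:**
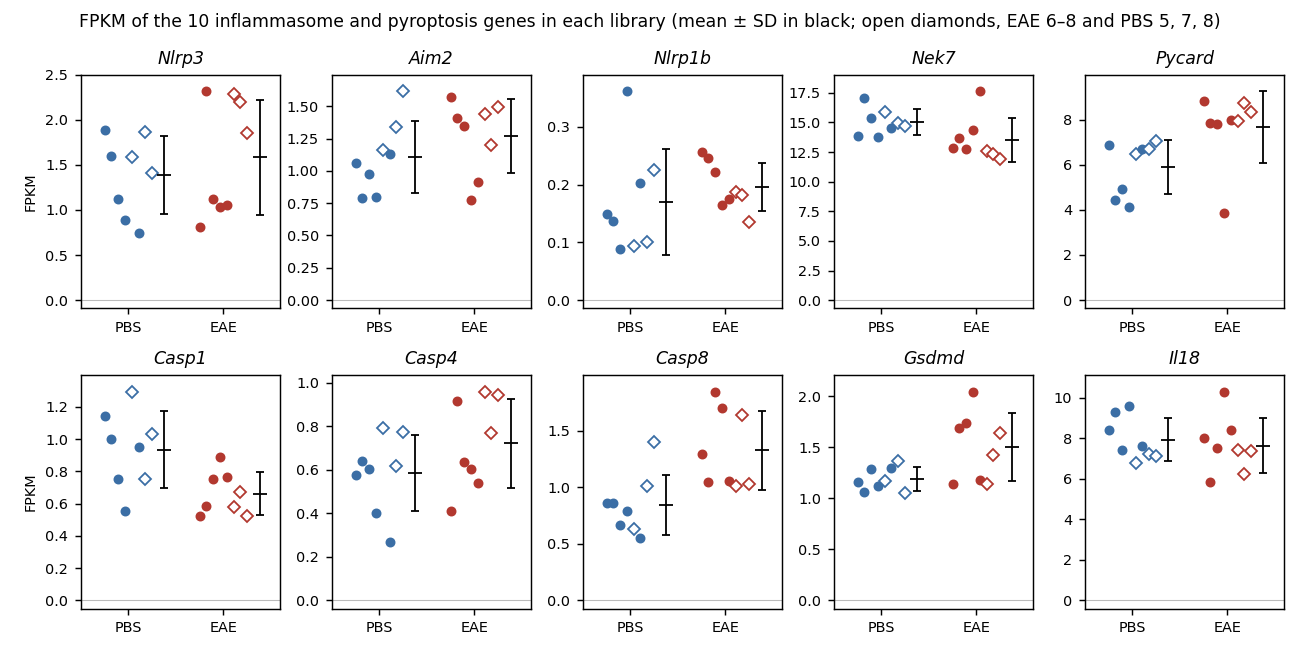
FPKM (y axes, each on its own scale) of the 10 genes in each of 8 PBS libraries (blue) and 8 EAE libraries (red), with the mean and SD in black. Open diamonds mark 6 closely alike libraries, EAE 6, 7 and 8 and PBS 5, 7 and 8. The groups overlap in every panel, and for Pycard 7 EAE libraries lie above all PBS libraries while EAE 4 lies below them.

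On GRCm38, Casp1 (chr9:5298517-5307265) and Casp4 (chr9:5308828-5336783) are neighbours on the plus strand, with 1562 bases between the GENCODE M21 gene models. Il18 lies on the same chromosome (chr9:50554827-50581840). Nlrp3 (chr11:59541568-59566956) and Nlrp1b (chr11:71153102-71230733) share chromosome 11, and Aim2 (chr1:173350879-173466040), Nek7 (chr1:138482875-138620141) and Casp8 (chr1:58795374-58847503) share chromosome 1. Pycard lies at chr7:127989708-127993867 and Gsdmd at chr15:75862327-75867408. Aim2 overlaps Cadm3, and Il18 overlaps Bco2 and Tex12, each on the opposite strand, and Nek7 overlaps an antisense gene. The strand setting of the counting is not given in the sources used here, so reads of these overlaps may have been counted for either gene.

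Promoter windows of 250 bases before the RefSeq start (GRCm38.p6) were found for 9 of the 10 genes. The motifs, chosen with these windows in view after variants had also been tried, were searched on both strands, and a match describes letters only. The letters GAGGAAGT, which hold the core bound by ETS factors such as PU.1, were present in windows of Aim2, Nlrp1b and Pycard and in 2.44% of all 32851 windows. An NF-κB form, GGG and TTTCC with 2 free bases between, was present for Casp4 and in 1.41% of all windows, and the E-box CACGTG for Casp1 and in 6.02%. TATAAA was present for Il18 and in 12.4% of all windows. The interferon response core (GAAA repeated after 2 free bases), the form TTCNNNGAA and the letters TGACGTCA were in 0 of the 9 genes' windows and in 2.98%, 7.02% and 1.55% of all windows. The segments below show 30 bases around the matches, with the matched letters in capitals, from the strand of the gene. They are given to show the letters that 2 sensors share with the adaptor and those found for the neighbours Casp1 and Casp4. In Pycard and in the second Casp4 match the letters read on the opposite strand. Aim2 is at chr1:173420480-173420509 on the plus strand, Nlrp1b at chr11:71230811-71230840 on the minus strand and Pycard at chr7:127993893-127993922 on the minus strand. Casp4 has matches at chr9:5308746-5308775 and chr9:5308819-5308848, and Casp1 one at chr9:5298368-5298397, all on the plus strand. RefSeq starts differ in part from the GENCODE gene models given above. The Aim2 segment lies inside the Aim2 model, and the second Casp4 match lies just after the start of the Casp4 model.
Aim2: aaaccttattgGAGGAAGTgggtcactgag
Nlrp1b: cccagtgtttaGAGGAAGTgcatctgtgca
Pycard: gtccccaccccACTTCCTCcaccaacccac
Casp4 first match: atgagttacaGGGGATTTCCccacagcagt
Casp4 second match: cgcctccctatgctaaGGAAATGCCCagta
Casp1: ctgcagcagaaaCACGTGtggcagccttcc

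Among the sensors, Nlrp3, which responds to membrane and ion disturbance, varied most between EAE mice. Its FPKM was 0.807 to 2.32 (median 1.48) in EAE and 0.750 to 1.89 (median 1.501) in PBS libraries. EAE 2, 6, 7 and 8 lay at 1.85 FPKM or more, and EAE 1, 3, 4 and 5 at 1.12 FPKM or less. The coefficient of variation was 40.5% in the EAE group and 30.9% in PBS controls, while counting error alone gave 7.61% and 7.58%. Its log2FC was 0.14 (SE 0.23, adjusted p = 0.813 by edgeR after Benjamini-Hochberg adjustment), with a 95% interval from −0.34 to 0.62. Aim2, the sensor of cytosolic DNA, was at 0.778 to 1.57 FPKM (median 1.38) in EAE and at 0.787 to 1.62 FPKM (median 1.09) in PBS libraries. The ranges nearly coincided, and its log2FC was 0.15 (95% interval −0.17 to 0.46). Nlrp1b, a further sensor, was at 0.135 to 0.256 FPKM (median 0.185) in EAE and 0.0886 to 0.361 FPKM (median 0.144) in PBS libraries. PBS 4 was the highest of all 16 libraries with 112 counts, against 26 to 75 counts in the other PBS libraries. Its log2FC was 0.16 (95% interval −0.38 to 0.69), and without PBS 4 it was 0.41 (adjusted p = 0.316, edgeR). Reads of Nlrp1b may be shared with its near copy Nlrp1a, so its values are uncertain.

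All but 1 EAE library lay below the PBS median of Nek7. Its FPKM was 11.9 to 17.6 (median 12.8) in EAE and 13.8 to 17.1 (median 14.9) in PBS libraries. Only EAE 5 exceeded the PBS median. The log2FC was −0.20 (SE 0.071, 95% interval −0.35 to −0.058, adjusted p = 0.128 by edgeR after Benjamini-Hochberg adjustment), and without EAE 5 it was −0.27 (adjusted p = 0.0105, edgeR, with 5.05% of all mRNAs called in that fit). With 1299 to 2427 counts per library, Nek7 was the most precisely counted of the 10 genes.

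Pycard was at 3.86 to 8.82 FPKM (median 7.97) in EAE and 4.12 to 7.03 FPKM (median 6.57) in PBS libraries. Of the EAE libraries, 7 exceeded every PBS library, and EAE 4 was below all of them. The log2FC was 0.33, a fold of 1.26 (SE 0.14, 95% interval 0.036 to 0.62, adjusted p = 0.227 by edgeR after Benjamini-Hochberg adjustment). Without EAE 4 the log2FC was 0.43 (adjusted p = 0.0158, edgeR), in a fit that called 7.38% of all mRNAs. Whether Pycard passes the test therefore rests on this library.

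Of the 3 caspases, Casp8 had the highest values in EAE mice relative to PBS. Its FPKM was 1.01 to 1.85 (median 1.17) in EAE and 0.555 to 1.40 (median 0.824) in PBS libraries. All 8 EAE libraries lay above the PBS median, as they did for 8.20% of all mRNAs, while PBS 8 lay within the EAE range. The log2FC was 0.60, a fold of 1.51 (SE 0.19, 95% interval 0.20 to 0.99, adjusted p = 0.0992 by edgeR after Benjamini-Hochberg adjustment). Without PBS 8 the log2FC was 0.73 and the adjusted p 0.0400 (edgeR), in a fit that called 1.73% of all mRNAs. In the other 15 fits that each left out 1 library, Casp8 did not pass.

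Casp1, the protease that the complexes recruit, differed in the opposite direction. It had 20 to 35 counts per library in EAE mice and 24 to 64 in PBS-treated mice, or 0.522 to 0.891 FPKM (median 0.628) and 0.552 to 1.29 FPKM (median 0.9748). All 8 EAE libraries lay below the PBS median, as they did for 2.63% of all mRNAs. The log2FC was −0.55, a fold of 0.685 (SE 0.20, 95% interval −0.97 to −0.12, adjusted p = 0.161 by edgeR after Benjamini-Hochberg adjustment). In EAE mice its coefficient of variation of 20.1% was close to the 19.4% that counting error gives, so that the depth limits its precision. Casp4 had 16 to 37 counts per library in EAE mice and 11 to 38 in PBS-treated mice, with medians of 0.703 and 0.610 FPKM. EAE 2, 6 and 8 lay above every PBS library and PBS 4 and 6 below every EAE library, while the others overlapped. The log2FC was 0.25 (95% interval −0.27 to 0.77). Casp1 and Casp4 are paralogs, and reads may be shared between them and Casp12.

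Gsdmd, the pore-forming substrate of caspase-1 and caspase-11, was at 1.14 to 2.05 FPKM (median 1.53) in EAE and 1.06 to 1.37 FPKM (median 1.16) in PBS libraries. EAE 2, 3, 4, 7 and 8 exceeded every PBS library, and the other 3 lay within the PBS range. Its coefficient of variation was 22.3% in the EAE group and 9.67% in PBS controls, and the latter was below the 11.8% of counting error. The log2FC was 0.28 (SE 0.15, 95% interval −0.021 to 0.59, adjusted p = 0.326 by edgeR after Benjamini-Hochberg adjustment). Il18, the cytokine precursor, was at 5.86 to 10.3 FPKM (median 7.48) in EAE and 6.81 to 9.60 FPKM (median 7.52) in PBS libraries. The medians were close, and the log2FC was −0.11 (SE 0.11, 95% interval −0.33 to 0.12), the narrowest interval after that of Nek7.

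The libraries of a group were not equally alike. Among EAE 6, 7 and 8, the median absolute difference in log2 counts, scaled for depth, between pairs was 0.0757 to 0.0830, against 0.1103 to 0.235 for the other EAE pairs. Among PBS 5, 7 and 8 it was 0.0695 to 0.0805, against 0.121 to 0.215. The labels name no batch, and the comparison was repeated within these 6 libraries and within the other 10. Since the 6 libraries were picked for their small spread, which is the error of the test, p-values within them are too small and are not given, and nothing is read from the 24.1% of 17239 mRNAs that had an adjusted p under 0.05 there. Within the 6 alike libraries the log2FC of Nek7 was −0.33, against −0.14 within the other 10. That of Pycard was 0.28, against 0.36, and that of Casp1 was −0.82, against −0.39. Within the other 10 libraries 0 of the 10 genes passed edgeR's test, against 0.0745% of 17461 mRNAs, and Casp8 had a log2FC of 0.82 (adjusted p = 0.157), against 0.25 within the 6. Nlrp3 had a log2FC of 0.35 in the first set and −0.052 in the second, and Aim2 −0.022 and 0.28. A test of the difference between the sets, by an interaction term in edgeR chosen after seeing the data, gave no adjusted p under 0.05 for any of the 10 genes, and 0.0615% of all mRNAs passed it. The lowest unadjusted p among the 10 was 0.140, for Casp8. Of the cell type markers, Gfap and the microglia marker Sall1 passed the interaction test. Their log2FC was lower within the 6 alike libraries, by −0.92 for Gfap (adjusted p = 0.00807, edgeR) and −0.95 for Sall1 (adjusted p = 0.0174, edgeR).

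**Figure D3:**
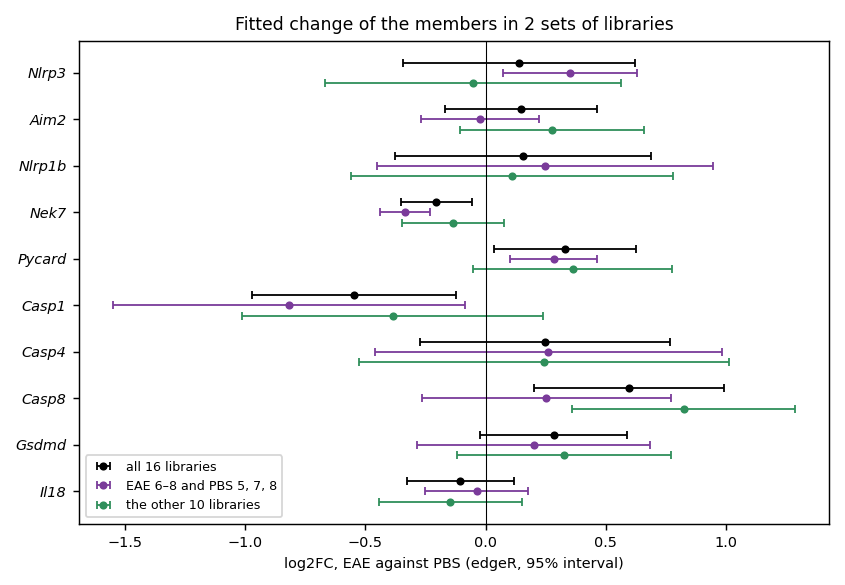
Fitted log2FC of EAE against PBS (x axis) with its 95% interval from edgeR for the 10 genes, over all 16 libraries (black), within EAE 6, 7 and 8 and PBS 5, 7 and 8 (purple) and within the other 10 libraries (green). The purple intervals are too narrow, since those libraries were picked for their small spread. The estimates of Nlrp3 and Aim2 lie on both sides of 0, while those of every other gene keep the same sign in each set.

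To set the genes against microglial RNA, the FPKM of each gene was divided by the mean FPKM of the 17 microglia markers. That mean cannot tell more microglia from more marker RNA per cell. It was 14.1 to 15.4 FPKM in EAE 6, 7 and 8 and 19.8 to 22.8 FPKM in the other EAE libraries. PBS 4 was at 21.3 FPKM and the other PBS libraries at 13.05 to 17.4 FPKM. The part of this split in the ratios below was not tested. Trem2, a lipid receptor of microglia, was the only marker of this list past edgeR's test (log2FC 0.56, adjusted p = 0.0282), and 15 of the 17 had a log2FC above 0. On this ratio Casp1 was 0.0357 ± 0.00599 (SD, n = 8) in the EAE group and 0.0601 ± 0.0192 in PBS controls (p = 0.00435, Benjamini-Hochberg adjusted p = 0.0311 over the 10 ratios, exact permutation test, two-sided). Nek7 was 0.733 ± 0.101 and 0.954 ± 0.147, respectively (p = 0.00622, adjusted p = 0.0311, exact permutation test). The ratio of the other 8 genes did not pass, with adjusted p from 0.150 for Il18 to 0.985 in the same exact permutation test. The calls of Casp1 and Nek7 depended on the scale and the reference, while the values stayed below 0. As a log2 ratio of EAE to PBS, Casp1 was at −0.69, and at −0.67 with log2(FPKM + 0.1), −0.44 with log2(FPKM + 1) and −0.82 with Tmem119, P2ry12 and Cx3cr1 as the reference (adjusted p = 0.0552, 0.0536 and 0.0513 in the exact permutation test). Nek7 was at −0.37, and at −0.41, −0.37 and −0.50 in the same order (adjusted p = 0.0552, 0.0536 and 0.109, exact permutation test). Each passed in 9 of 16 tests that left out 1 library.

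Of 46 other genes of the pathway, 0 passed edgeR's test at an adjusted p under 0.05, against 2.42% of all mRNAs. An unadjusted p under 0.05 was found for 9, of which 7 had higher and 2 lower values in EAE mice, near the 17.4% of all mRNAs. DESeq2 called 1, Panx1, against 5.03% of all mRNAs. The log2FC was above 0 for 37 of the 46, with a median of 0.12, while 52.7% of all mRNAs had a log2FC above 0. All 10 cytokine and receptor genes and all 5 partners of Casp8 had a log2FC above 0, as did 10 of 12 other sensors, 9 of 12 triggers and regulators and 3 of 7 other executioners and membrane factors. Panx1, a channel that releases ATP, was at 4.88 to 6.49 FPKM in EAE and 5.45 to 7.17 FPKM in PBS libraries, with a log2FC of −0.27 (SE 0.08, adjusted p = 0.0764 in edgeR and 0.0260 in DESeq2). Naip2, a sensor of bacterial secretion systems, had a log2FC of 0.35 (adjusted p = 0.190, edgeR). Fadd, the adaptor of caspase-8, had a log2FC of 0.33 (adjusted p = 0.316, edgeR). Mlkl, the pore-forming effector of necroptosis, had 4 to 40 counts per library in EAE mice and 3 to 21 in PBS-treated mice, and its log2FC was 0.93 (adjusted p = 0.252, edgeR). Nlrp10 had 1 to 15 and 6 to 38 counts, with a log2FC of −1.17 (adjusted p = 0.186, edgeR). Chmp4b, of the machinery that repairs membrane pores, had a log2FC of −0.07 (adjusted p = 0.574, edgeR).

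The interleukin-1 genes, whose products act through one receptor, were uneven between libraries. Il1a, an agonist of the receptor, was at 0.599 to 5.18 FPKM (median 3.10) in EAE and 0.439 to 2.20 FPKM (median 1.02) in PBS libraries. EAE 2, 3, 6, 7 and 8 exceeded every PBS library, while EAE 4 and 5 lay below the PBS median. Its log2FC was 1.19 (SE 0.39, adjusted p = 0.103, edgeR's quasi-likelihood test), and the adjusted p was 0.0263 without EAE 4 and 0.0291 without EAE 5. Those fits called 7.38% and 5.05% of all mRNAs, respectively. In every other fit that left out 1 library, Il1a did not pass. Il1b, the substrate of caspase-1, had 17 to 460 counts in EAE and 37 to 294 in PBS libraries. EAE 1 had the lowest and EAE 6 the highest count of all 16 libraries, and the log2FC was 0.59 (SE 0.49, adjusted p = 0.572, edgeR). Within the 6 alike libraries, the 3 EAE libraries had 378 to 460 counts of Il1b and the 3 PBS libraries 269 to 294, with a log2FC of 0.89. Within the other 10 libraries the log2FC was 0.20 (adjusted p = 0.958, edgeR).

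Il1rn, which encodes the antagonist of the interleukin-1 receptor, split the PBS libraries. PBS 5, 7 and 8 had 49 to 63 counts, and the other 5 PBS libraries had 0 to 2. EAE libraries had 13 to 199 counts, with the highest in EAE 3. Over all libraries the log2FC was 2.02 (SE 0.76, adjusted p = 0.164, edgeR's quasi-likelihood test). Within the 6 alike libraries it was 1.12. Within the other 10 libraries Il1rn passed edgeR's test (adjusted p = 0.0359). With 0 to 2 counts per PBS library there, it cleared the filter on total counts only through the EAE group. It was at least 21.8-fold higher in EAE mice, against a floor of 3 counts per PBS library that covers counting error only. This bound rests on EAE 3. Without that library it was at least 8.08-fold, with 13 to 41 counts in the remaining 4 EAE libraries. Whether Il1rn passes without EAE 3 was not tested. The difference between the sets had an unadjusted p of 0.000595 and an adjusted p of 0.193 (edgeR). Gbp2, an interferon-induced GTPase that acts upstream of caspase-11 and Aim2, showed the same split of the PBS libraries. It was at 5.28 to 5.68 FPKM in PBS 5, 7 and 8 and at 0.879 to 2.62 FPKM in the other PBS libraries, while EAE libraries lay at 2.61 to 8.05 FPKM. Its log2FC was 0.80 (adjusted p = 0.225, edgeR). With a term for the 2 sets in the model, in which 4.29% of all mRNAs passed, Il1a, Il1rn and Gbp2 were the pathway genes called, all higher in EAE mice. Neutrophil markers moved with the groups as given above, and their part in these values was not tested.

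**Figure D4:**
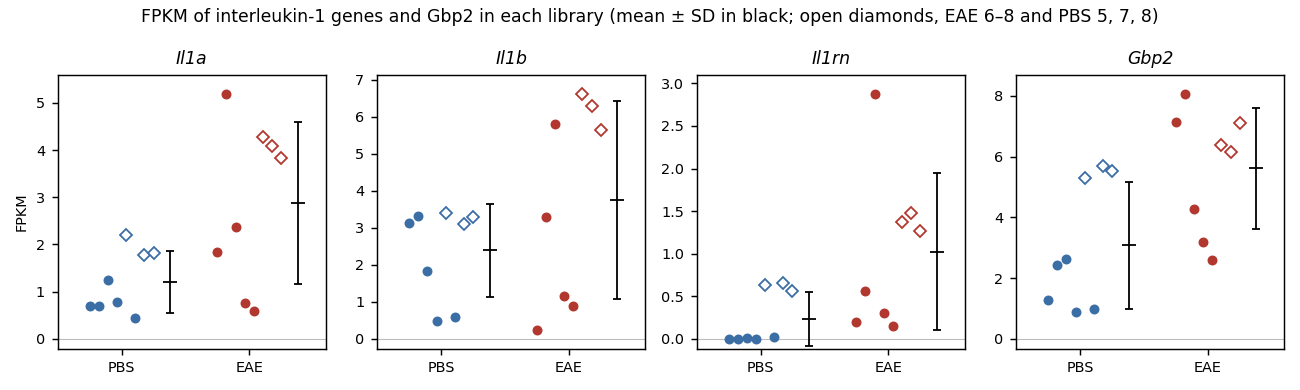
FPKM (y axes, each on its own scale) of Il1a, Il1b, Il1rn and Gbp2 in each of 8 PBS libraries (blue) and 8 EAE libraries (red), with the mean and SD in black. Open diamonds mark PBS 5, 7 and 8 and EAE 6, 7 and 8. For Il1rn the 3 PBS diamonds stand at 0.564 to 0.654 FPKM and the other PBS libraries at or near 0.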

How the data were processed

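RNA was sequenced from cells sorted by FACS as brain microglia, of 8 EAE and 8 PBS-treated mice, as ribosome-depleted stranded libraries. Per the labels and methods, the authors aligned reads to GRCm38 with HISAT2 2.1.0 and counted them with HTSeq 0.11.2, and they deposited raw counts per gene and FPKM values. DESeq2 1.22.2 is also named in the labels. The strand setting is not given in the sources used here.

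The counts were tested here with edgeR 4.0.16 (R 4.3.3; quasi-likelihood, TMM normalization, condition as the only term) on 17885 genes with a total of at least 16 counts, with Benjamini-Hochberg adjustment over all of them and a threshold of 0.05. FPKM values served for levels and for the ratio to microglia markers, tested by exact permutation over 12870 divisions (scipy 1.17.1). DESeq2 1.42.0, other scaling and filters, a replicate block, a term for the alike libraries and leaving out each library were alternatives. Named genes were the 10 members, Il1b, any pathway gene past the test and the 2 smallest p-values in each pathway role. A gene that this rule names is not reported here. The members, lists and alike libraries were chosen with earlier results of these data known. On simulated data of 17783 genes, 99.5% of 200 genes changed by 1.5 on the log2 scale were recovered, and 7.87% of calls were false. Recovery at smaller sizes was not tested, and the log2FC of Casp8, the largest in size among the 10 genes, was 0.60.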

Additional observations from a re-analysis of the deposited data

Results flagged for a closer look

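Nek7 was at 17.6 FPKM in EAE 5, and its gap to the next EAE library was 0.570 of the group's range. Pycard was at 3.86 FPKM in EAE 4, with a gap of 0.792 of the range. Both exceed Dixon's 95% critical value for 8 samples. Of 42 pairs of a gene and a group checked 2 stood apart, and chance gives about 1 in 20.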

How the results depend on the processing

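The count of the 10 genes past the test, 0 in each direction, became 1 higher with DESeq2, 1 higher and 1 lower within the 6 alike libraries (picked for their small spread, so that this test calls too many), and 0 to 1 in each direction over the 16 fits that left out 1 library. That of the 46 other pathway genes, also 0, became 3 higher with a term for the alike libraries, 7 higher and 4 lower within them, 1 higher within the other libraries, 1 lower with DESeq2, and 0 to 3 higher and 0 to 1 lower on leaving out 1 library. The number past the exact permutation test of the ratio to microglia markers was 0 instead of 2 with log2(FPKM + 0.1), with log2(FPKM + 1) and with 3 reference genes, and 0 to 2 on leaving out 1 library. The log2FC turned to −0.052 for Nlrp3 within the other libraries and to −0.022 for Aim2 within the alike ones. On the log2 ratio to microglia markers, Nlrp1b turned to −0.064, −0.19 and −0.00097 under these 3 settings in turn, and Casp4 to −0.10 and −0.016 and Gsdmd to −0.042 and −0.029 under the last 2. On leaving out 1 library this ratio ran from −0.21 to 0.074 for Nlrp3, −0.14 to 0.12 for Aim2 and −0.060 to 0.23 for Casp4. The cause was not tested. Replicate numbers did not pair the mice, since same-numbered libraries correlated at −0.121 to 0.382 and 3 of 8 correlated best with their own number. With the replicate block, 0 of the 10 genes were called (adjusted p 0.064 for Pycard in edgeR), and 150 mRNAs were higher and 367 lower, against 118 and 315. Casp1 and Casp4, with under 65 counts per library, are those that depth limits most.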
